A study of Mus musculus with 6 samples.

Results

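The transcripts described here are those of 10 genes of the hepatic stellate cell and of liver fibrosis. They comprise the fibrillar collagen genes Col1a1, Col1a2 and Col3a1, the basement membrane collagen genes Col4a1 and Col4a2, the matrix remodelling genes Timp1 and Mmp2, the contractile and filament genes Acta2 and Des, and the growth factor gene Hgf. They were chosen by name, and every array probe whose RefSeq accession maps to one of them was taken, which gave 14 of 56605 probes, or 10 of 22911 named genes. The livers came from 3 male control mice, titled Flox, and 3 male mice with a liver-specific knockout of Elovl6 (LKO), which encodes a fatty acid elongase acting on palmitate. All 6 mice were kept on high-sucrose food over 14 days and fasted 4 hours before sampling. A one-colour Agilent array was used per mouse, so n = 3 mice per group throughout, and that number limits the precision. The sources used here do not give the promoter that drives the recombinase, the strain or the age. The comparison asks whether transcripts of the stellate cell and the matrix differ on this lipogenic diet when the liver lacks the elongase.

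Stellate cells lie between hepatocytes and the sinusoidal endothelium and store vitamin A. On injury they can become myofibroblasts, which express smooth muscle actin (Acta2) and deposit collagen, and desmin (Des) has long been used to find them in rodent liver. The type I collagen fibre is built from the products of Col1a1 and Col1a2, and that of type III from the product of Col3a1. The type IV chains of Col4a1 and Col4a2 form the network of basement membranes. Mmp2 encodes a gelatinase, Timp1 an inhibitor of matrix metalloproteinases, and Hgf the hepatocyte growth factor that stellate cells secrete and that hepatocytes sense through the receptor Met. Several of the 10 genes are also active in vascular smooth muscle, portal fibroblasts and endothelium, and in whole liver fewer cells of a type and less RNA per cell cannot be told apart.

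All arrays shared 1 slide and 1 scan. Of 59305 spots per array, leaving out control spots, 52.1% to 56.6% were well above background and 0 were saturated. Elovl6 itself was lower in every LKO liver (log2 change -6.51 ± 0.30, SE, limma adjusted p = 0.00279). The array of control 3 stood apart by skeletal muscle transcripts: all 14 markers of that tissue on the list were well above background there, and 5 of them (Actn3, Ckm, Myh1, Myh4 and Myh7) on no other array. Among genes chosen after their values were seen, the processed signal of the troponin gene Tnnc2 was 1961 in control 3 and between 39.7 and 50.9 in the other livers. That of the fast myosin gene Myh4, on its brighter probe, was 505 in control 3 and between 3.15 and 8.47 elsewhere. The summed level of the 6 muscle markers tested, each relative to the array's 75th percentile of signal, was 17.6 in control 3, 2.01 and 2.15 in controls 1 and 2, and between 2.05 and 2.26 in LKO. Among the 10 genes, Des and Mmp2 were highest in control 3, and values with and without that mouse are given for them below. Of the 20 stellate cell markers, 19 were well above background on all 6 arrays, among them Lrat, Reln, Ngfr, Pdgfrb and Dcn. The other, Gfap, was above background on 2 arrays.

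None of the 10 genes passed an adjusted p of 0.05 over the 14171 genes tested, where 2 genes did (0.0141%). At an unadjusted p under 0.05 there were 3 of the 10, namely Hgf, Des and Col4a2, against 11.2% of all genes (5.56% higher and 5.6% lower in LKO). The same 3 were the genes whose groups did not overlap: Hgf and Col4a2 were higher and Des was lower in each LKO liver than in any control, against 17.3% of all genes (8.11% higher and 9.21% lower). Values were higher in LKO for 7 of the 10 genes, against 50.8% of all genes, and the median log2 change was 0.17, against 0.00 over all genes tested. Changes ran from -0.76 for Des to 0.52 for Hgf. All 10 genes were well above background on all 6 arrays. Groups that do not overlap stay apart when a mouse is left out, so Hgf, Col4a2 and Des had to remain without control 3. No other gene of the 10 joined them, against 26.2% of all genes without overlap in that smaller comparison.

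**Figure D1:**
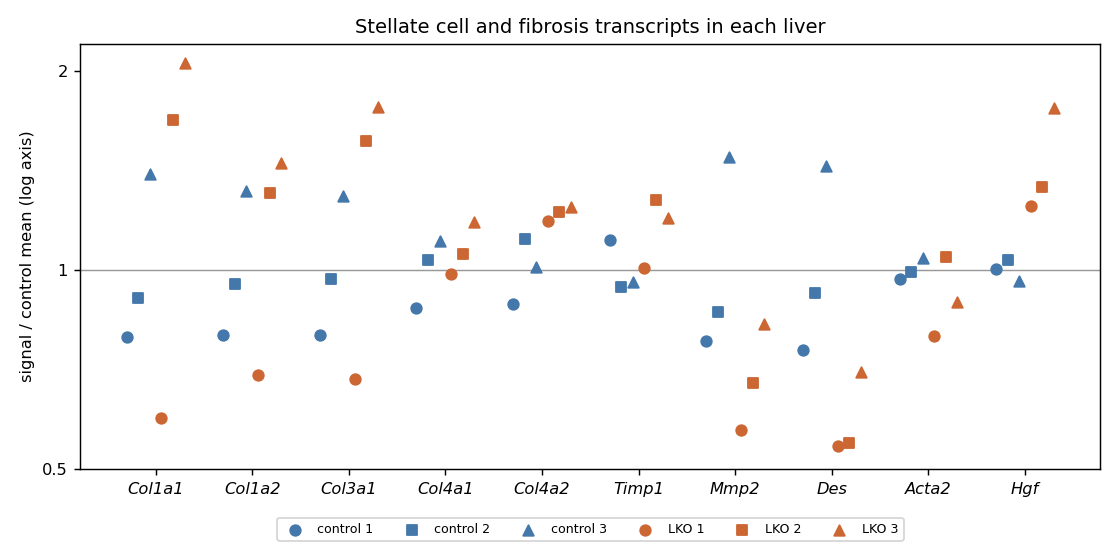
Signal of each of the 10 genes in each liver, divided by the geometric mean of the 3 controls after scaling to the array's 75th percentile (log axis). Blue symbols are controls, orange symbols are LKO, and the symbol shape gives the replicate number. Col1a1, Col1a2 and Col3a1 are lowest in LKO 1 and highest in LKO 3, whereas Hgf and Col4a2 lie above every control in all 3 LKO livers and Des lies below.

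The fibrillar collagens spread widely between mice of 1 genotype and did not differ between genotypes beyond that spread. Values are given as processed signal divided by the array's 75th percentile, so that a value of 1 is the brightness below which 75% of spots fall. Group means, and the folds between them, are geometric here and below, being taken on the log2 scale. The promoters of Col1a2 and Col3a1, whose transcripts ran together over the 6 livers, are shown as RefSeq gives them in GRCm38.p6, as the 250 bases before the transcript start. Of the 10 genes, 8 had an entry there, and Col1a1 and Mmp2 had none. Col1a2 is at chr6:4505368-4505617 and Col3a1 at chr1:45311288-45311537, both on the plus strand, and capitals mark matches on either strand. The motifs marked are CCAAT, then GGGCGG as bound by Sp1-type factors, and the letters TATAAA, called the TATA motif here.
Col1a2: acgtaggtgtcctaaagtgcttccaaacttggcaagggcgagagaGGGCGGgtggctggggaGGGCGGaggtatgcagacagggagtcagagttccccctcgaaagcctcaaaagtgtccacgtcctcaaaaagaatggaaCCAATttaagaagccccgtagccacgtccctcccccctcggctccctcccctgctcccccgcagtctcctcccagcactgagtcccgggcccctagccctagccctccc
Col3a1: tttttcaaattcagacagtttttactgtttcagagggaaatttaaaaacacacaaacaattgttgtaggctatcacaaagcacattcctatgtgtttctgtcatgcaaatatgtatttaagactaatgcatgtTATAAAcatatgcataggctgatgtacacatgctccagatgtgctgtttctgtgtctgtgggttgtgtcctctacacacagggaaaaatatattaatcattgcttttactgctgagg
In the window of 300 bases that runs from 250 before to 50 after the start, the Sp1-type motif matched 2 times in Col1a2 and so did CCAAT, whose second match, on the minus strand, begins at the start and is not printed. The Col3a1 window matched the TATA motif 1 time, 117 to 112 bases before the start, and held neither of the others. Whether that match acts as a TATA box was not tested. Of 32851 promoter windows of this length, 37.4% held CCAAT, 35.7% the Sp1-type motif and 13.6% the TATA motif. The AP-1 motif TGANTCA (7.81% of windows) and the CArG box of serum response factor (1.63%) were searched too. The CArG box was searched as CC, 6 bases of A or T, then GG. No exact match of either was found in the windows of the 8 genes. Sites that differ from these patterns by a base, as CArG sites can, were not searched, so such sites may be present. The Col1a2 window was 61.0% and the Col3a1 window 37.7% G and C. These matches describe the letters and were not related to the signals.

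Col1a1, measured by 2 probes that are each printed 10 times, had a relative signal of 0.707, 0.811 and 1.25 in controls 1 to 3, against of 0.535, 1.51 and 1.84 in LKO 1 to 3 on the brighter probe, A_55_P2118520. LKO 1 was the lowest of the 6 livers and LKO 2 and LKO 3 were the highest, so the groups overlapped. The other probe, A_52_P525107, gave 0.625, 0.767 and 1.24 in controls 1 to 3, against 0.447, 1.48 and 1.83 in LKO, in the same order of mice. The highest liver had 3.44 times the signal of the lowest within LKO, and 1.77 times within the controls. The log2 change was 0.35 ± 0.47 (SE), with a 95% interval from -0.78 to 1.48 and a limma adjusted p = 0.828.

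Col3a1, which encodes the chain of type III collagen, placed the livers in the same order as Col1a1. Its relative signal was 2.04, 2.48 and 3.32 in controls 1 to 3, against 1.75, 4.01 and 4.51 in LKO. Col1a2, the partner chain of type I collagen, had 3.19, 3.81 and 5.28 in controls 1 to 3, against 2.78, 5.24 and 5.82 in LKO, and differed from that order in control 3, which came just above LKO 2. For each of these genes LKO 1 was below and LKO 3 above every other liver. The log2 change was 0.30 ± 0.37 (SE) for Col3a1 and 0.13 ± 0.31 (SE) for Col1a2 (limma adjusted p = 0.809 and 0.909), so neither differed beyond the spread between mice.

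What the comparison of fibrillar collagens gave turned on the mouse LKO 1. Without it the log2 change was 0.90 for Col1a1 (adjusted p = 0.227), 0.73 for Col3a1 (adjusted p = 0.233) and 0.46 for Col1a2 (adjusted p = 0.424) in limma. Without LKO 3 it was 0.01 for Col1a1, 0.05 for Col3a1 and -0.07 for Col1a2. Without LKO 1, 6 of the 10 genes had groups that did not overlap, against 31.9% of all genes, Col1a1, Col3a1 and Timp1 joining Hgf, Col4a2 and Des. LKO 1 was also the LKO array in the slide column that held the 3 controls, while LKO 2 and LKO 3 lay in the other column. Within the shared column, LKO 1 against the controls gave -0.74 for Col1a1, -0.55 for Col3a1 and -0.53 for Col1a2, none past the threshold, and the mouse and the slide column cannot be told apart. LKO 1 had the smallest acute phase signal of the LKO livers as well. Across 23 acute phase genes, the median log2 difference from the control average was 0.40 in LKO 1, 0.85 in LKO 2 and 1.12 in LKO 3, and between -0.16 and 0.14 in the controls. Whether this has a part in the collagen values was not tested.

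Col4a2 was slightly higher in LKO and Col4a1, its partner chain, had overlapping groups. Both genes lie head to head on chromosome 8. In GRCm38.p6 the start of Col4a2, on the plus strand, is at 11312805 and that of Col4a1, on the minus strand, at 11312826, so that the 22 bases from chr8:11312805-11312826 lie after both starts and their promoter windows share 78 bases. They are shown on the plus strand because this is where the pair is joined. Capitals are not used for this stretch, and the Sp1-type motif GGGCGG lies within it.
Col4a1 and Col4a2: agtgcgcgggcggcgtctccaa
Col4a2 had a relative signal of 0.917, 1.15 and 1.04 in controls 1 to 3, against of 1.22, 1.26 and 1.28 in LKO. All 3 LKO livers were above all 3 controls, and they lay close together, the highest being 1.05 times the lowest. The LKO mean was 1.22-fold the control mean (log2 change 0.28 ± 0.10, SE, 95% interval 0.04 to 0.53), with an unadjusted p = 0.0300 and a limma adjusted p = 0.396. Col4a1 had 1.04, 1.23 and 1.32 in controls 1 to 3, against 1.18, 1.26 and 1.41 in LKO. Here control 3 was above LKO 1 and LKO 2, and the log2 change was 0.10 ± 0.12 (SE, limma adjusted p = 0.807). Whether the changes of the 2 genes differ was not tested. Within the shared slide column the log2 change of Col4a2 was 0.25.

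**Figure D2:**
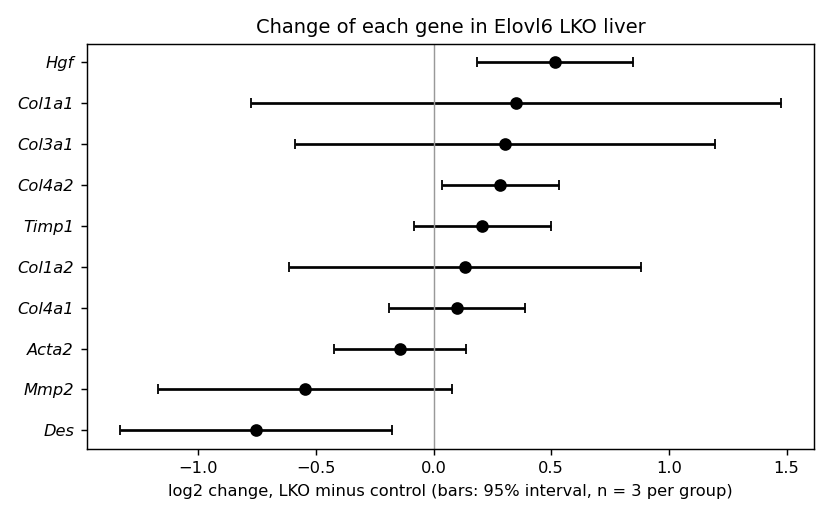
Log2 change of each of the 10 genes in LKO against control, with the 95% interval of the limma fit (n = 3 mice per group), sorted by size. The intervals of Hgf and Col4a2 lie above 0 and that of Des below, while none of the genes passed after adjustment over all genes. Col1a1 and Col3a1 have the widest intervals among the genes with higher values.

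Hgf had the highest change of the 10 genes. On probe A_51_P484998 its relative signal was 0.164, 0.169 and 0.157 in controls 1 to 3, against 0.204, 0.218 and 0.287 in LKO. The controls were within 1.08 times of each other and every LKO liver was above them. The LKO mean was 1.43-fold the control mean (log2 change 0.52 ± 0.14, SE, 95% interval 0.19 to 0.85), with an unadjusted p = 0.00800 and a limma adjusted p = 0.278. Its second probe, A_55_P2507000, which carries the accession of another Hgf transcript, gave 0.173, 0.132 and 0.140 in controls 1 to 3, against 0.197, 0.127 and 0.241 in LKO. On that probe LKO 2 was the lowest of all livers, and the log2 change was 0.30 ± 0.24 (SE). The gene is dim on these arrays, with processed signals between 45.6 and 78.5 on the first probe. With normexp background correction, which adds an offset and so shrinks the changes of dim probes, the log2 change of Hgf was 0.13.

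Genes of HGF activation, of its receptor and of related signalling were measured beside Hgf. Of 13 on the list, 10 were tested and 8 of these were above 0 with a median of 0.12 on the log2 scale, and none passed over all genes. Plaur, the receptor of the urokinase that can activate HGF, was 2.07-fold higher (log2 change 1.05 ± 0.32, SE, limma adjusted p = 0.328), with 1.42, 1.79 and 3.49 times the control mean in LKO 1 to 3. Plaur is dim as well, with processed signals between 25.8 and 32.8 in the controls and of 40.1, 48.9 and 98.8 in LKO 1 to 3. Spint1, an inhibitor of the proteases that cleave pro-HGF, was 1.20-fold higher, and Mst1, which encodes the related HGF-like protein, was 1.09-fold higher, without passing. Met, the receptor itself, had a log2 change of -0.02 and was chosen after its value was seen.

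Des was lower in LKO, and its value in the controls was raised by control 3. The relative signal was 0.109, 0.133 and 0.208 in controls 1 to 3, against 0.0784, 0.0790 and 0.101 in LKO. Every LKO liver was below every control, LKO 3 lying just under control 1. The control mean was 1.69-fold the LKO mean (log2 change -0.76 ± 0.24, SE, 95% interval -1.33 to -0.18), with an unadjusted p = 0.0176 and a limma adjusted p = 0.344. Without control 3 the log2 change was -0.50 ± 0.16 (SE, limma adjusted p = 0.508). Des is also a muscle gene, and its highest value came from the array with the skeletal muscle transcripts. The part of that RNA in the control value was not tested beyond leaving the mouse out. Its processed signals were low, between 20.9 and 60.3, and with normexp its log2 change was -0.21.

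Mmp2 followed the same order in the controls. Its relative signal was 0.145, 0.161 and 0.276 in controls 1 to 3, against 0.107, 0.126 and 0.154 in LKO. LKO 1 and LKO 2 were below all controls, and LKO 3 was above control 1. The log2 change was -0.55 ± 0.26 (SE, limma adjusted p = 0.503), and -0.26 ± 0.18 without control 3, which moved the fold from 1.46 to 1.20. With normexp the log2 change was -0.19.

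**Figure D3:**
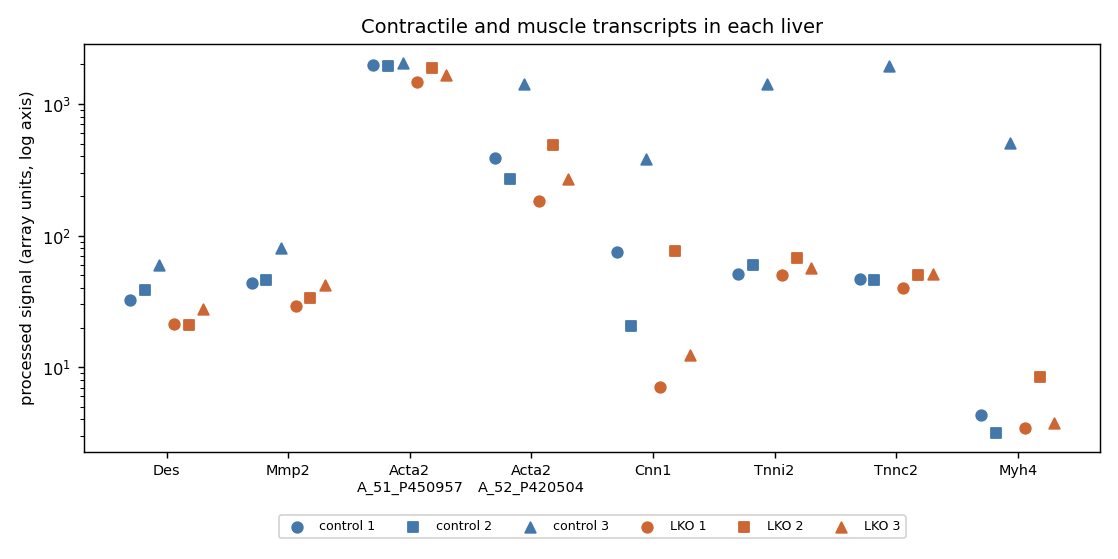
Processed signal of Des, Mmp2, the brighter Acta2 probes, the smooth muscle gene Cnn1 and the skeletal muscle genes Tnni2, Tnnc2 and Myh4 in each liver (array units, log axis, blue controls and orange LKO, shape gives the replicate). Control 3 is the highest point for every probe plotted, 1961 for Tnnc2 against at most 50.9 elsewhere. The levels of different probes cannot be compared with each other.

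Acta2, the usual mark of the myofibroblast, was measured by 3 probes that did not tell the same story. The brightest, A_51_P450957, which stands for the gene here, had a relative signal of 6.61, 6.77 and 7.12 in controls 1 to 3, against 5.43, 7.14 and 6.11 in LKO. LKO 2 was the highest liver and LKO 1 the lowest, and the log2 change was -0.14 ± 0.12 (SE, limma adjusted p = 0.700). On A_52_P420504 controls 1 to 3 had 1.31, 0.945 and 4.93, and LKO 1 to 3 had 0.665, 1.84 and 0.990, so control 3 stood far above the rest and LKO 2 second. The log2 change of this probe was -0.78 ± 0.66 (SE). The remaining probe, A_52_P210078, was well above background in control 3 alone and was not tested. With the mean of the probes in place of the brightest, the log2 change of Acta2 was -0.46. All 3 probes carry the same accession, and where each lies in the transcript is not given in the files.

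The smooth muscle and myofibroblast list showed the same split between probes and mice. Of 17 genes, 12 were tested and 4 lay above 0, the median being -0.05 on the log2 scale, and none passed over all genes. Without LKO 1, 7 of 13 lay above 0, but the filter was run again there and let in Thbs1. That gene entered only through LKO 2 and LKO 3, where its signal is highest, so its direction was set by the filter. Cnn1, which encodes the smooth muscle protein calponin, had 4.59 times the control mean in control 3 and 0.247 times in control 2, and a log2 change of -2.05 ± 1.24 (SE). It was well above background on 1 LKO array, LKO 2. Tpm2, a tropomyosin gene, had 1.84 times the control mean in control 3 and between 0.594 and 0.713 times in LKO (log2 change -0.61 ± 0.37, SE). Fn1, which encodes fibronectin and is made by hepatocytes too, was 1.12-fold higher with groups that did not overlap. The summed level of the 12 genes was between 217 and 245 in the controls and between 241 and 260 in LKO, and most of it was Fn1. Without Fn1 the sum was 64.1 to 74.7 in the controls and 61.8 to 72.5 in LKO, so the groups overlapped.

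Timp1, the inhibitor of matrix metalloproteinases that is also known to respond to inflammatory cytokines, differed little. Its relative signal was 2.53, 2.15 and 2.19 in controls 1 to 3, against 2.30, 2.92 and 2.74 in LKO. LKO 2 and LKO 3 were above all controls and LKO 1 was below control 1. The LKO mean was 1.15-fold the control mean (log2 change 0.21 ± 0.12, SE, limma adjusted p = 0.585), and 0.31 ± 0.12 without LKO 1 (adjusted p = 0.337). The 23 acute phase genes measured on the same arrays were all above 0 (median 0.80 on the log2 scale), and 0 of them passed over all genes, although 20 had an unadjusted p under 0.05, against 11.2% of all genes. Without LKO 1, 3 of these 23 passed, against 15 of 14261 genes. Within the shared slide column the log2 change of Timp1 was 0.01.

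Among the other genes of matrix turnover, the largest difference was that of Reck, which encodes a membrane-anchored inhibitor of metalloproteinases including the product of Mmp2. Its relative signal was 1.18, 1.24 and 1.42 in controls 1 to 3, against 0.663, 0.522 and 0.683 in LKO. The control mean was 2.06-fold the LKO mean (log2 change -1.04 ± 0.13, SE), every LKO liver was below every control, and the limma adjusted p was 0.100, or 0.0405 with normexp. Over the alternatives tried, its adjusted p ranged from 0.0405 to 0.637. Of the 15 genes on this list 9 were tested, 6 with higher values and a median of 0.11 (0.01 without control 3), and 0 passed over all genes. Without LKO 1 the filter, run again, left 11 to be tested, of which 1 passed, against 15 of 14261 genes. Mmp11 and Mmp14, which encode a stromelysin and a membrane-type metalloproteinase, were 1.36-fold and 1.16-fold higher without passing.

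Genes that modify, fold and cross-link collagen mostly had higher values in LKO. Of 19 on the list 17 were tested and 16 were higher (median 0.14 on the log2 scale), against 50.8% of all genes with higher values. None passed over all genes. An unadjusted p under 0.05 was found for 2 of the 17, against 11.2% of all genes, and 5 had groups that did not overlap, all higher, against 8.11% of all genes. P4ha2, a prolyl 4-hydroxylase subunit, had 1.26, 1.17 and 1.23 times the control mean in LKO 1 to 3, above the highest control at 1.03 (log2 change 0.29 ± 0.08, SE, limma adjusted p = 0.283). Colgalt1, a collagen galactosyltransferase, was 1.19-fold and Ppib, the cyclophilin that aids collagen folding, 1.13-fold higher. Without control 3 the list had 15 of 17 higher with a median of 0.21, and without LKO 1 it had 17 of 17 with a median of 0.27. Hepatocytes express many of these endoplasmic reticulum proteins too.

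Of 13 other collagen genes, which include further fibrillar ones, 11 were tested, 5 with higher values, and the median log2 change was -0.01. Leaving out 1 mouse turned that direction, with 7 of 11 higher and a median of 0.13 without control 3, and 7 of 11 and 0.08 without LKO 1. Col14a1, a collagen associated with fibrils, was lower in every LKO liver than in any control (log2 change -0.27 ± 0.11, SE, limma adjusted p = 0.428). Col2a1 was 1.32-fold higher, with LKO 1 at 0.833 and LKO 2 and LKO 3 at 1.59 and 1.72 times the control mean. Of 18 other basement membrane genes 14 were tested, 4 with higher values and a median of -0.03, or 8 of 14 and 0.03 without control 3. Lama5, a laminin chain, was 1.12-fold higher with groups that did not overlap, and Nid2 and Col4a5 were 1.24-fold and 1.25-fold lower. Col4a5 was dim, being well above background on 3 control arrays but on 2 LKO arrays. It was tested only through the controls, where it is higher, so its direction is partly set by that filter. None of these genes passed over all genes.

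Other stellate cell markers, as a list, had a median log2 change of -0.00, with 9 of 19 higher. Nes, which encodes the filament protein nestin, was lower in every LKO liver (log2 change -0.22 ± 0.08, SE, limma adjusted p = 0.392). Rgs5, a pericyte gene, was 1.19-fold higher with overlapping groups. Lrat, which esterifies retinol in stellate cells and was chosen after its value was seen, had a log2 change of -0.20.

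Of 24 genes of TGF-beta and PDGF signalling, which drive stellate cell activation, 22 were tested and 9 lay above 0, with a median of -0.03 on the log2 scale. Pdgfc, a growth factor for mesenchymal cells, was 1.37-fold lower, with every LKO liver below every control. Ltbp4, which binds latent TGF-beta, was 1.15-fold lower. The log2 changes of the list ran from -0.60 to 1.56, so the largest was upward. Groups did not overlap for 2 genes with higher and 1 with lower values, against 8.11% and 9.21% of all genes. None passed over all genes.

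**Figure D4:**
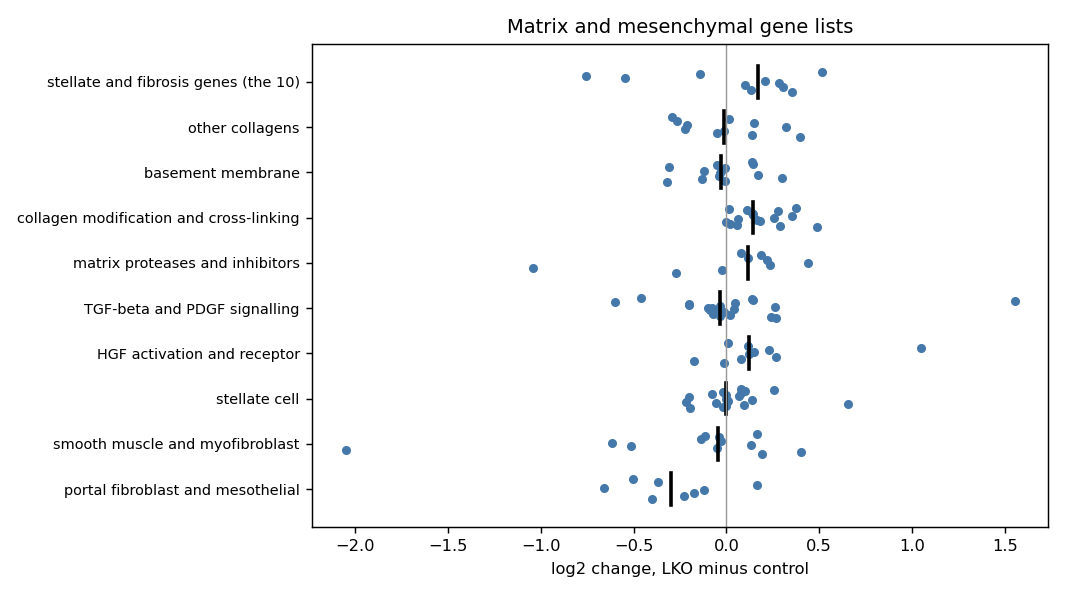
Log2 change in LKO against control of every tested gene of the 10 and of 9 related lists (1 point per gene, vertical bar at the list's median). The medians lie between -0.30 for portal fibroblast and mesothelial genes and 0.17 for the 10 genes, and Reck, Plaur and Cnn1 are among the points farthest out. A list's median has no test here.

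**Figure D5:**
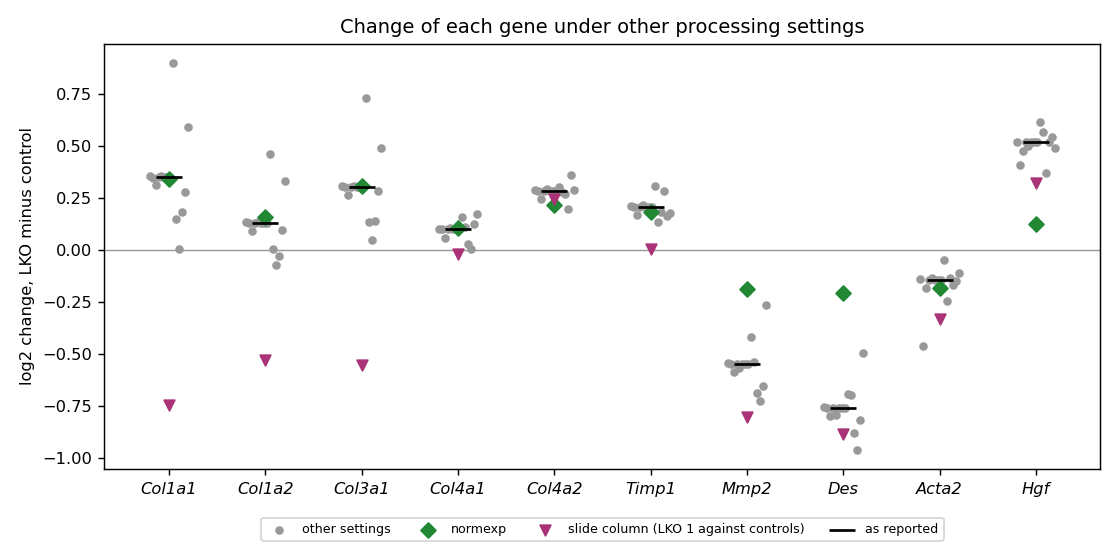
Log2 change of each of the 10 genes as reported (black bar) and under 16 other settings (grey points, with normexp as green diamonds and the fit with slide column as purple triangles). Col1a1, Col1a2 and Col3a1 change sign with the slide column, where LKO 1 alone is set against the controls, and Hgf, Des and Mmp2 shrink with normexp but keep their direction.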

How the data were processed

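RNA of each liver (0.1 µg) was labelled with Cy3, per the labels' protocols, and the arrays were read with Agilent Feature Extraction 11.5.1.1, per the file headers. The deposited processed signals are background-corrected intensities. The deposited value table holds the same intensities times 1 constant per array. Accessions were matched to gene symbols with a RefSeq table of GRCm38.p6, which named 32994 of 56605 probes. The array headers name an earlier build, so coordinates are given for RefSeq promoters alone.

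Values were log2 processed signals less that array's 75th percentile (265 to 298 units). Outlier spots (64 to 111 per array) were left out and the spots of a probe were averaged. A gene was its brightest probe, tested if well above background on all 3 arrays of a group, which kept 14171 genes. The comparison used limma 3.58.1 (R 4.3.3), two-sided and unblocked. Adjusted p-values are Benjamini-Hochberg values over these genes, with a threshold of 0.05. The fit was checked on simulated data. Alternatives were scaling, background correction, the value table, filters, probe choice, eBayes settings, a replicate block, the slide column and leaving out each mouse. Counts of the lists without control 3 and without LKO 1 were added after the data were seen.

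The members, the 16 other lists and the tests were chosen with earlier results of these data known. The text names the 10 members, Elovl6 and, from each list, the 3 genes with the smallest p, unless a gene is said to be chosen after its value was seen. Some genes that this rule names are not reported here.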

Additional observations from a re-analysis of the deposited data

How the results depend on the processing

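None of the 10 genes passed the adjusted threshold under any of the 16 alternatives, where the lowest adjusted p of any of them was 0.167 (Hgf without LKO 1). Of the 10, 6 kept their direction throughout. The fit with the slide column, in which LKO 1 alone is set against the controls, reversed Col1a1 (-0.74), Col1a2 (-0.53), Col3a1 (-0.55) and Col4a1 (-0.0209) and moved the median of the 10 to -0.43. Col1a2 ranged from -0.0706 to 0.463 when each mouse was left out, being -0.0307 without control 1 and -0.0706 without LKO 3. The median of the 10 ranged from 0.02 to 0.30 in those fits. The number of genes passing over all genes was 2 as reported, 16 with normexp, 13 with trend and robust eBayes, 1 with dim probes kept, 1 with probes above background on all 6 arrays, 1 with the slide column and 1 to 15 when a mouse was left out (15 without LKO 1). The cause was not tested. With the replicate number as a block 3 genes passed and 0 of the 10. The block moved the SE of Des from 0.24 to 0.14 and that of Mmp2 from 0.26 to 0.13, while that of Timp1 rose from 0.12 to 0.15. Deviations of same-numbered mice correlated at 0.04, -0.05 and -0.07 over genes, and not every mouse correlated best with its own number. With so few mice per group these values cannot settle whether the numbers pair the mice, which the labels do not state. The signals of Des, Mmp2 and Hgf, and of Plaur beside them, are dim, which limits how far their folds can be relied on. The normexp offset shrinks the changes of dim probes in any case, so the normexp values do not measure that limit.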

Other observations

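The values of portal fibroblast, mesothelial and bile duct genes were mostly lower in LKO, and no list was tested as a whole. Of 8 portal fibroblast and mesothelial genes tested, 7 were below 0, the median being -0.30 on the log2 scale, or -0.19 without control 3. Thy1, a marker of portal fibroblasts, was 1.32-fold lower and Cd34 1.58-fold lower, and for both control 3 was the highest liver. Msln, the mesothelial gene mesothelin, was 1.29-fold lower, with 0.667, 0.717 and 0.976 times the control mean in LKO 1 to 3. Among bile duct genes, Krt19, a keratin of cholangiocytes, had 0.551, 0.582 and 0.740 times the control mean in LKO 1 to 3, and at least 0.841 times in the controls (log2 change -0.69 ± 0.20, SE, limma adjusted p = 0.300). Control 3 was its highest liver too, at 1.32 times the control mean. Of the 7 bile duct genes tested 5 were lower, with a median of -0.15. Among the lower genes Tspan8, well above background on 3 control but 2 LKO arrays, was tested only through the controls. The summed level of the 7 went otherwise, being 5.76, 7.23 and 5.97 in controls 1 to 3, against 5.51, 7.71 and 9.24 in LKO. Of 16 endothelial genes 7 were higher with a median of -0.02, or 9 with a median of 0.02 without control 3. Tie1, a receptor of endothelial cells, was lower in every LKO liver (log2 change -0.18 ± 0.08, SE, limma adjusted p = 0.475). None of these passed over all genes. Among the other lists, 12 of 12 Kupffer cell genes (median 0.22), 4 of 6 neutrophil genes (0.70) and 8 of 10 hepatocyte genes (0.05) were above 0. The 6 skeletal muscle genes tested were all below 0 (-1.04), or 3 of 6 without control 3 (-0.01).

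Mmp12, the macrophage elastase, was chosen after its values were seen. On its brightest probe, A_55_P2788594, controls 1 to 3 had processed signals of 17.0, 22.2 and 17.7, while LKO 1 to 3 had 12.2, 75.5 and 72.9. It was well above background in control 2, LKO 2 and LKO 3, and was therefore not tested. Its 2 other probes were well above background on 0 and 1 of the 6 arrays.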
